A study of Mus musculus with 12 samples.

Results

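The translation factor genes described here are those that code for eukaryotic initiation factors (symbols starting with Eif and a digit) and elongation factors (Eef and a digit), without the Eif2ak kinases and Eef1e1. Of the 18193 genes that the array measured through a probe set with 1 gene symbol, 53 met this rule, and they had 141 such probe sets between them. Where a gene had several, as 38 of the 53 did, the one with the highest mean signal over the 12 arrays stood for it. The mean log2 signal was at least 6 for 50 of them, and the dimmer ones were Eif2s3y, Eif4a3 and Eef2kmt. Eef1g, Eif3j1, Eif3j2 and Eif4ebp3 were covered by probe sets shared between several genes and were not analysed here. Eif1, Eif2s1, Eif3g and Eif4g1 had no probe set of their own in the table used and were not analysed here either.

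RNA came from lymph node cells of P14 mice, which all carry a transgenic T cell receptor for the viral peptide gp33-41 presented by MHC class I. Mice were wild type or lacked protein kinase D2 (PKD2, encoded by Prkd2), a serine/threonine kinase activated downstream of the antigen receptor, and no other allele and no age is given. Disaggregated cells were kept in culture for 4 h, either unstimulated or with gp33-41 at 62.5 ng/ml. The mice, 3 of each genotype, gave 1 array of each kind, so there were 4 groups of 3 arrays. The suspension was that of the whole lymph node, so cells other than the transgenic T cells were present, and fewer cells of a type and less RNA per cell cannot be told apart in such samples.

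In background, translation starts when eIF4F, made of the cap-binding protein eIF4E, the scaffold eIF4G and the helicase eIF4A, brings an mRNA to the small ribosomal subunit. That subunit already carries eIF1, eIF1A, eIF3 and eIF2, and eIF2 with GTP holds the initiator tRNA; eIF5 and eIF5B then complete start codon selection and the joining of the large subunit. During elongation eEF1A delivers aminoacyl-tRNAs, eEF2 moves the ribosome along the mRNA and eIF5A helps peptide bonds to form. Resting T cells make little protein, and the rate rises after they meet antigen.

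Stretches of DNA just before the transcription start are printed for 5 members because all hold the E-box CACGTG, to which Myc and related factors can bind, although the mRNA of the first 3 rose with peptide and that of the last 2 fell. The sequences are from RefSeq on build GRCm38.p6, read 5′ to 3′ on the strand of the gene, and the capitals mark the E-box. They lie at chr3:138527018-138527267 (plus strand) for Eif4e, chr11:69672424-69672673 (minus strand) for Eif4a1, chr1:162548346-162548595 (minus strand) for Eef1aknmt, chr10:81176381-81176630 (plus strand) for Eef2 and chr7:108934165-108934414 (plus strand) for Eif3f.
Eif4e: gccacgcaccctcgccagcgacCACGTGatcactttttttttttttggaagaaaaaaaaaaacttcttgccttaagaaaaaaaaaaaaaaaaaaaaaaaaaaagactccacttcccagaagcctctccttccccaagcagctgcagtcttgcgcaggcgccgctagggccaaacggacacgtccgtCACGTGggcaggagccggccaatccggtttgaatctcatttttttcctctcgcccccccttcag
Eif4a1: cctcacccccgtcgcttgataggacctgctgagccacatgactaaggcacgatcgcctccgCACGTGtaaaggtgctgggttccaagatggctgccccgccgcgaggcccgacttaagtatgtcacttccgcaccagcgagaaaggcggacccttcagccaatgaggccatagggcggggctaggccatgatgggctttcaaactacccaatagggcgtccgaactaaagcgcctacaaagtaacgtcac
Eef1aknmt: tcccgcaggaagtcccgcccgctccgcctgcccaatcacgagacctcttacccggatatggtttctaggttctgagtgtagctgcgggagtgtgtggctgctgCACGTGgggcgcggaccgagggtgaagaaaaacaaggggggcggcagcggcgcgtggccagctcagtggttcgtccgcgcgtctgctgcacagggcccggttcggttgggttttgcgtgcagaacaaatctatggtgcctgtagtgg
Eef2: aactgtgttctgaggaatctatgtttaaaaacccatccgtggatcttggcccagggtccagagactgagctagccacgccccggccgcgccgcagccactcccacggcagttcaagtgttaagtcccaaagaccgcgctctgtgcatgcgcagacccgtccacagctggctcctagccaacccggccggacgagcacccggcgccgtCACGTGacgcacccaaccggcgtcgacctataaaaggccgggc
Eif3f: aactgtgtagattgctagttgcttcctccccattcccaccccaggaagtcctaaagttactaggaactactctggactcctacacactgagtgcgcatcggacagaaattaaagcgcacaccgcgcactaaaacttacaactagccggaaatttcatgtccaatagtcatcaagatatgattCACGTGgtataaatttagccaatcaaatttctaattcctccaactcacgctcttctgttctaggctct

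The promoter table, which runs from 250 bases before to 50 after each start, held 42 of the 53 members. Eef1akmt1, Eef1d, Eif1a, Eif2b3, Eif3e, Eif3h, Eif3i, Eif4e3, Eif4ebp1, Eif4g2 and Eif6 were not in it. CACGTG, which reads the same on both strands, was present for 12 of the 42 members (28.6%), against 2187 of all 27025 genes of the table (8.09%). The share was not computed for genes with a mean signal of at least 6 alone, to which nearly all members belong. It was present for 7 of 22 members that rose with peptide in wild-type cells (31.8%), for 3 of 5 that fell (60%) and for 2 of 15 that were not called (13.3%). The members with it were Eef1aknmt, Eif3a, Eif4a1, Eif4e, Eif4h, Eif5a and Eif5a2 among those that rose, Eef2, Eef2k and Eif3f among those that fell, and Eif1b and Eif3k among the rest. The ATF4 element TGATGNAA on either strand was found for 2 of 42 members (4.76%), Eef2k and Eif2s3x, against 4.51% of all genes. These matches describe letters within the window, and the binding of a factor was not measured.

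Messenger RNAs of many translation factors start with an oligopyrimidine tract, and windows of 25 bases around the start are printed for 5 members because the mRNAs that start there changed differently with peptide. The windows, also from RefSeq on GRCm38.p6, lie at chr9:78481710-78481734 (minus strand), chr7:108934405-108934429 (plus), chrX:94212637-94212661 (minus), chr15:79075213-79075237 (plus) and chr16:20498807-20498831 (plus), in the order shown. Capitals mark C and T that follow on from a C within 5 bases of the start, and a run of C and T can extend further upstream in lower case.
Eef1a1: ctccgCCCTCTTCCCgagggtgggg
Eif3f: tctaggCTCTCTCTCTTTCTCggca
Eif2s3x: gagcattttCCTTTTCTCTCCgagc
Eif3l: gagttCTTCTTCCgCTCTCTCCCac
Eif2b5: ctctttCTCTCCCTgcaactacacc

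A C within 5 bases of the start followed by at least 4 C or T was present for 10 of 42 members (23.8%) and for 21.2% of all genes. These shares depend on the annotated start, and a tract further from it was not counted. It was present for 5 of the 22 members that rose in wild-type cells, for 1 of the 5 that fell and for 4 of the 15 not called. Of the windows printed, that of Eef1a1 belongs to a gene whose signal was not called, that of Eif3f to one that fell, and those of Eif2s3x, Eif3l and Eif2b5 to genes that rose.

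The arrays were alike in their distribution, with medians of 4.67 to 4.72, and the smallest correlation between arrays of a group was 0.991. Prkd2 read 9.99 to 10.34 on the unstimulated wild-type arrays and 5.80 to 6.33 on the unstimulated PKD2-null arrays, and 8.16 to 8.52 against 5.36 to 5.60 with peptide, which goes with the labels. The 11 T cell marker genes measured had a mean log2 signal of 10.48 to 11.13 over the arrays, and 4 were higher and 4 lower with peptide in wild-type and 3 and 3 in PKD2-null cells. The 13 B cell markers had a mean of 8.78 to 8.86 in unstimulated and 8.15 to 8.31 in stimulated wild-type arrays, and of 9.24 to 9.91 and 8.61 to 9.34 in PKD2-null arrays. In wild-type cells 8 of the 13 were lower and 1 higher with peptide, in PKD2-null cells 6 were lower, and 3 were higher in stimulated PKD2-null than in stimulated wild-type cells (limma, adjusted p). The 6 plasma cell markers averaged 8.30 to 8.85 in wild-type and 8.78 to 9.51 in PKD2-null arrays. The 12 myeloid and dendritic markers averaged 7.24 to 7.54 in wild-type and 7.23 to 8.11 in PKD2-null arrays, and 1 was higher and 1 lower with peptide in wild type and 2 lower in PKD2-null. The 6 NK cell markers averaged 6.22 to 6.89 and the 8 of stroma 4.45 to 4.78, and the 3 erythroid markers averaged 4.63 to 5.78 in wild-type and 3.94 to 4.30 in PKD2-null arrays. In stimulated PKD2-null cells the plasma cell marker Sdc1 was higher than in wild type by 1.26 (limma adjusted p = 0.011) and the NK cell marker Klrd1 was lower (-0.92, limma adjusted p = 0.027). Each was the only gene of its list called in that comparison. Of the 6 plasma cell markers 4 were on the higher and 2 on the lower side (changes of -0.39 to 1.26). Of the 6 NK cell markers 2 were on the higher and 4 on the lower side (-0.92 to 0.19). The part of these marker differences in the results below was not tested.

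Peptide raised the mRNA of most initiation factor complexes in wild-type cells while no gene of the eEF1 complex was called on the probe sets used and the gene for eEF2 fell. Of the 53 members 28 rose and 7 fell, at a limma p adjusted over 45037 probe sets of under 0.05, and 18 were not called. Over all genes 35.5% were called, 15.1% higher and 20.4% lower, and over genes with a mean of at least 6, to which nearly all members belong, 65.8% were called, 27.4% higher and 38.5% lower. A rise of at least 1 on the log2 scale, a doubling, was called for 10 members and for 5.54% of all genes, and a fall of at least 1 for 1 member and 5.95% of all genes. Among the 8478 genes with a mean of at least 6, a rise of at least 1 was called for 930 and a fall of at least 1 for 997. The median change of the members was 0.28, against 0.01 over all genes. The 3 stimulated and 3 unstimulated values did not overlap for 41 members (77.4%), against 46.7% of all genes. The share without overlap was not computed for genes with a mean of at least 6 alone, among which calls were more common. Without the mice with Y-linked signal described under eIF2, 24 members rose and 6 fell.

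**Figure D1:**
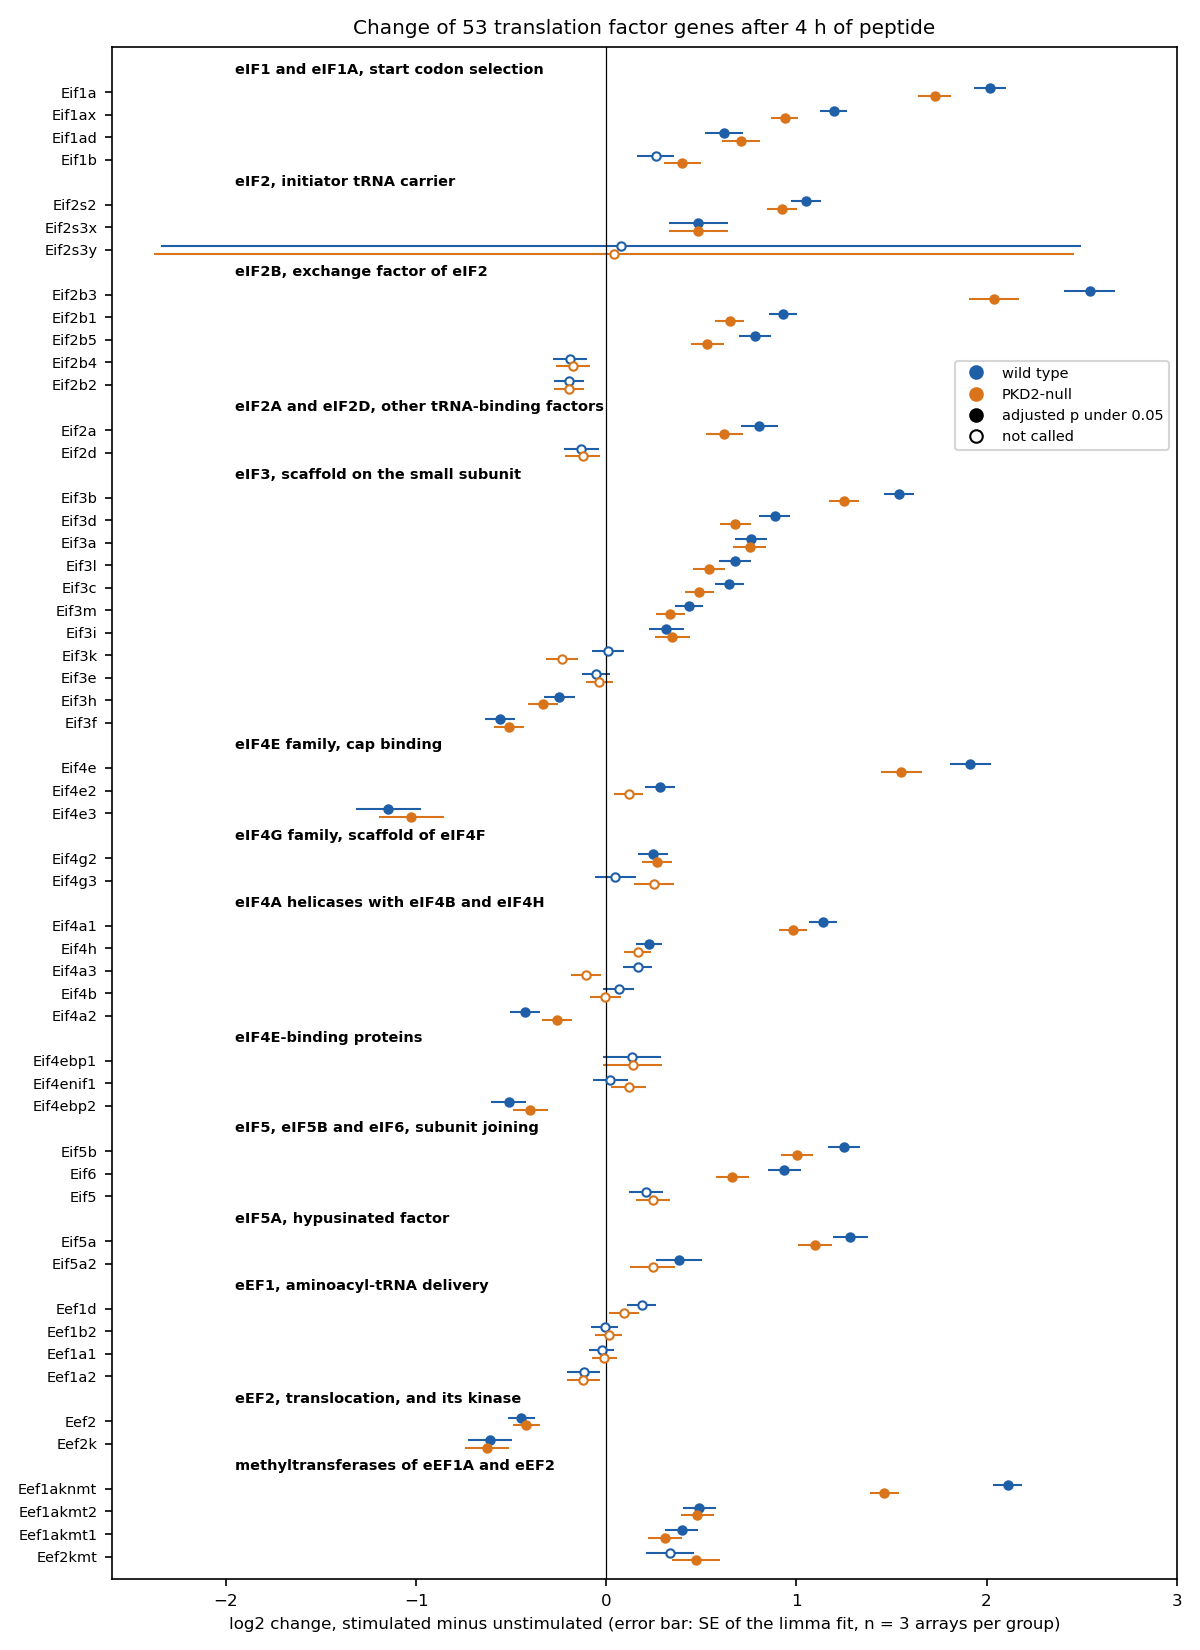
Change of each of the 53 members with peptide on the log2 scale (x axis), for wild-type (blue) and PKD2-null cells (orange), grouped by factor complex. Bars show the SE of the limma fit with 3 arrays per group, filled points were called at an adjusted p under 0.05, and most filled points lie right of 0; Eif2s3y has the widest bars (SE 2.42).

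The cap-binding protein gene Eif4e rose strongly. Its log2 signal was 9.71, 9.64 and 9.80 in the unstimulated and 11.59, 11.73 and 11.58 in the stimulated wild-type arrays, and 9.83, 10.01 and 9.64 against 11.35, 11.53 and 11.26 in PKD2-null arrays. Every stimulated value lay above every unstimulated one, and the stimulated PKD2-null values lay below the stimulated wild-type ones. That genotype difference was not called (-0.25, SE 0.108, limma adjusted p = 0.29), and 23.8% of all genes did not overlap between the stimulated genotypes. The rise was 1.91 (SE 0.108, 3.77-fold, limma adjusted p = 4.7e-08) in wild-type and 1.55 (SE 0.108, 2.93-fold, limma adjusted p = 5e-07) in PKD2-null cells.

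Its relative Eif4e3, which codes for another cap-binding protein, went the other way. Unstimulated wild-type arrays read 8.07, 8.33 and 8.22 and stimulated ones 6.99, 6.91 and 7.27, and the PKD2-null arrays read 8.47, 7.75 and 8.30 and then 7.37, 7.02 and 7.05. The groups did not overlap in either genotype, although the second unstimulated PKD2-null array was lower than the others. The signal fell by 1.15 (SE 0.171, limma adjusted p = 0.00017) in wild-type and by 1.03 (SE 0.171, limma adjusted p = 0.00056) in PKD2-null cells, the only fall of at least 1 among the members in wild-type cells. Eif4e2, which codes for a cap-binding homologue that does not recruit eIF4G, rose by 0.28 in wild-type cells (SE 0.0771, limma adjusted p = 0.013). On the probe set used, its change in PKD2-null cells of 0.12 was not called (limma adjusted p = 0.35). The wild-type call of Eif4e2 was lost after quantile normalization and without the mice with Y-linked signal (adjusted p = 0.12).

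Of the proteins that hold eIF4E back, Eif4ebp2 fell and Eif4ebp1 was not called. Eif4ebp2 read 9.68, 9.79 and 9.82 without and 9.12, 9.28 and 9.36 with peptide in wild-type arrays, and 9.83, 9.63 and 9.77 against 9.41, 9.26 and 9.38 in PKD2-null arrays. These values did not overlap, and the fall was 0.51 (SE 0.0915, limma adjusted p = 0.00073) in wild-type and 0.40 (SE 0.0915, limma adjusted p = 0.0054) in PKD2-null cells. The PKD2-null call of Eif4ebp2 was lost without the mice with Y-linked signal (limma adjusted p = 0.089). Eif4ebp1 read 8.16, 8.22 and 8.24 and then 8.11, 8.40 and 8.52 in wild-type, and 8.31, 8.33 and 8.29 and then 8.21, 8.87 and 8.27 in PKD2-null arrays. The stimulated values spread around the unstimulated ones, with 1 high PKD2-null array at 8.87, and the change was 0.14 (SE 0.154) in both genotypes (limma adjusted p = 0.6 and 0.62). Eif4enif1, whose protein takes eIF4E into the nucleus, changed by 0.02 and 0.12 and was not called.

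The eIF4A helicase genes split. Eif4a1 read 12.79, 12.71 and 12.75 without and 13.92, 13.86 and 13.89 with peptide in wild-type arrays, and 12.88, 12.94 and 12.75 against 13.81, 13.83 and 13.88 in PKD2-null arrays. It rose without overlap by 1.14 (SE 0.0747, 2.2-fold, limma adjusted p = 1.8e-07) and by 0.98 (limma adjusted p = 1e-06) in the 2 genotypes. Its close paralogue Eif4a2 read 12.70, 12.65 and 12.50 and then 12.26, 12.17 and 12.14 in wild-type, and 12.62, 12.59 and 12.54 and then 12.33, 12.32 and 12.33 in PKD2-null arrays. All stimulated values were below the unstimulated ones, with a fall of 0.43 (SE 0.0779, limma adjusted p = 0.00085) in wild-type and of 0.26 (limma adjusted p = 0.026) in PKD2-null cells. The second call was lost on leaving out any 1 PKD2-null array other than the third unstimulated one (adjusted p up to 0.081). Eif4h, whose product stimulates the helicase, rose by 0.22 in wild-type cells (limma adjusted p = 0.028), a call that the mouse as a replicate block removed (adjusted p = 0.059) and that leaving out any of 4 wild-type arrays removed too, namely unstimulated 2 or 3 or stimulated 2 or 3. Of the other probe sets of Eif4h 3 were called higher in wild-type cells, by 0.33 to 0.35 (limma adjusted p = 0.0018 to 0.0079), and 2 dim ones were not called. On the probe set used Eif4b, a second helper of the helicase, changed by 0.07 and -0.01 and was not called. Another probe set of Eif4b was called higher in wild-type cells (0.33, limma adjusted p = 0.009) but not in PKD2-null cells (0.06, 0.69). Its remaining probe set was called in neither genotype. Eif4a3, a member of the exon junction complex whose mean signal of 4.20 is below the array medians, was not called either.

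Of the eIF4G family Eif4g2, whose product lacks the eIF4E-binding site of eIF4G, read 12.94, 12.82 and 12.73 without and 13.10, 13.10 and 13.03 with peptide in wild-type arrays, and 12.73, 12.74 and 12.84 against 13.08, 13.00 and 13.04 in PKD2-null arrays. The groups did not overlap, but the rises of 0.25 and 0.27 (SE 0.0786, limma adjusted p = 0.032 and 0.023) were small. Leaving out any of 4 arrays took the adjusted p above 0.05 in each genotype (up to 0.12 in wild type without unstimulated 2 or 3 or stimulated 1 or 2, and up to 0.078 in PKD2-null without unstimulated 1 or 2 or stimulated 1 or 3). Other probe sets of Eif4g2, with means of 12.12 and 9.87, rose by 0.42 and 0.31 in wild-type cells (limma adjusted p = 0.001 and 0.0093). In PKD2-null cells they rose by 0.38 and 0.36 (0.0027 and 0.0045). A dim one (mean 5.83) was called lower in wild-type cells (-0.44, 0.0043) but not in PKD2-null cells (-0.12, 0.47), and the dimmest was called in neither. The lower call was the only opposite one among the 63 other probe sets of the 29 called members that had several. Of these 63, 38 were called the same way and 24 were not called in wild-type cells. Eif4g3, a full-length eIF4G, changed by 0.05 and 0.25 and was not called on the probe set used. A dim probe set of Eif4g3 (mean 5.34) was called higher in both genotypes (0.25 and 0.29, limma adjusted p = 0.046 and 0.026), and its remaining ones in neither. With the mean of all its probe sets Eif4g3 was called in PKD2-null cells.

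**Figure D2:**
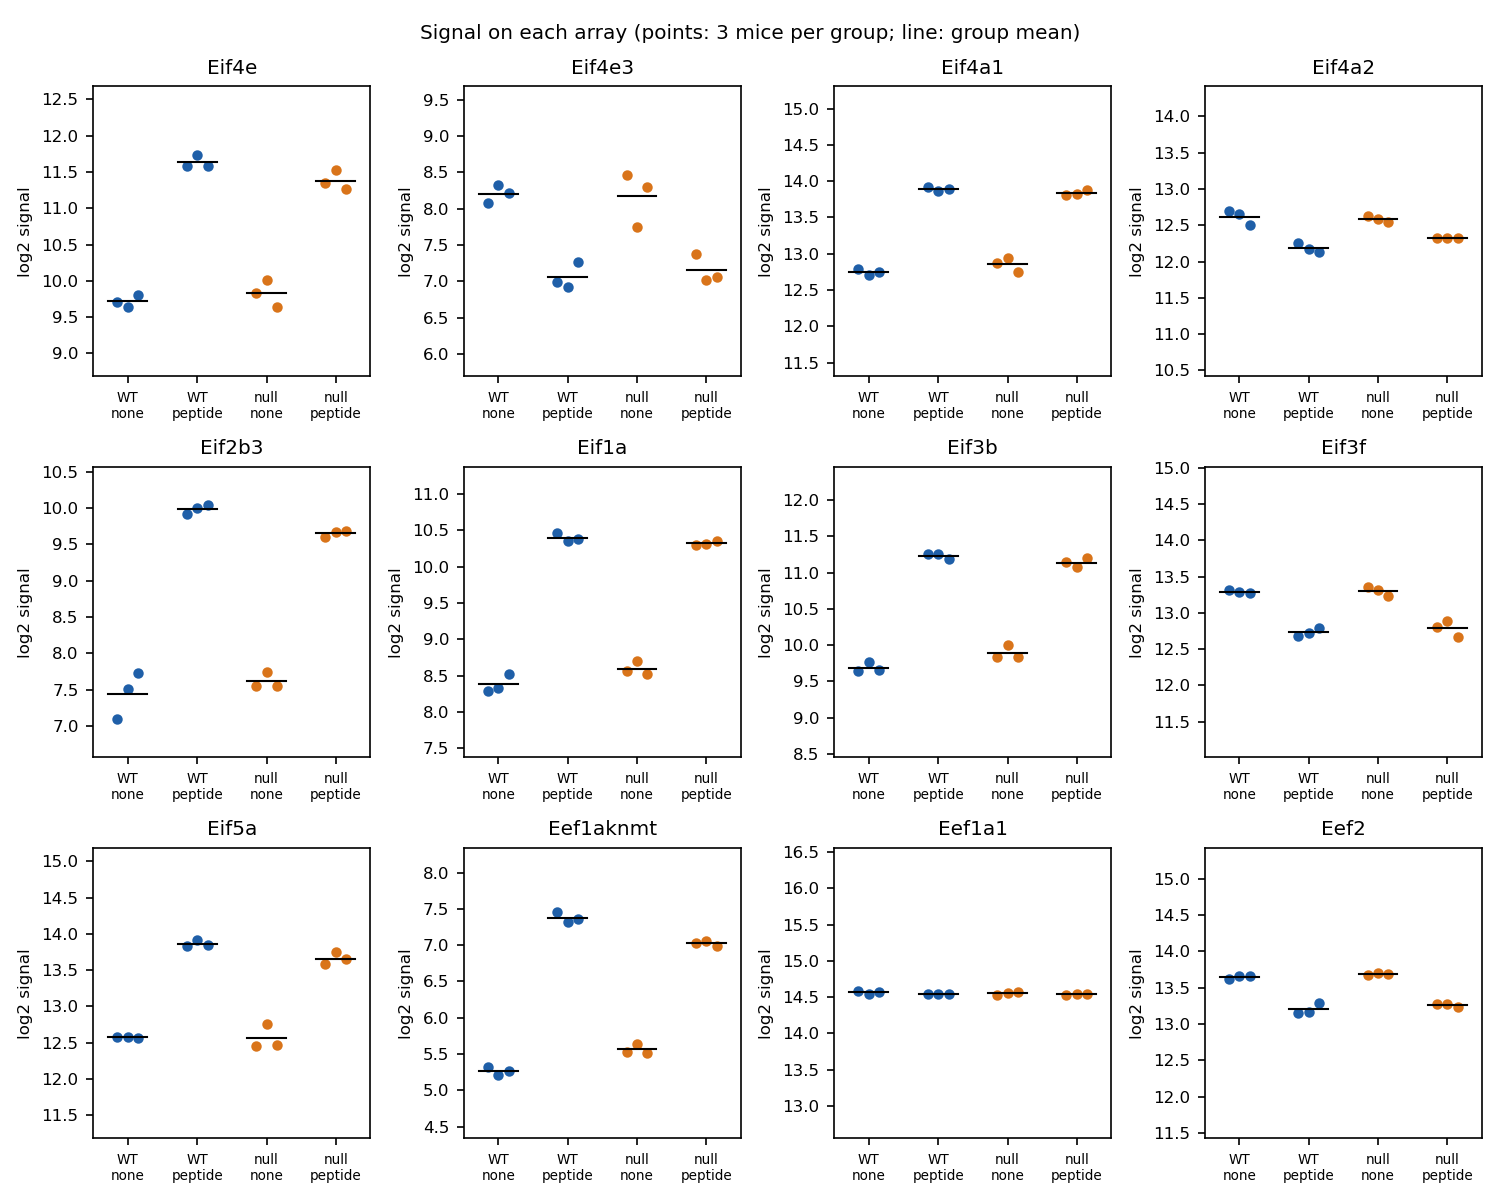
Log2 signal (y axis, a range of at least 4 units in each panel) on each of the 12 arrays for 12 members, by group on the x axis (WT, wild type; none, unstimulated); points are arrays and lines group means. Eif4e, Eif4a1, Eif2b3, Eif1a, Eif3b, Eif5a and Eef1aknmt are higher with peptide in both genotypes, Eif4e3, Eif4a2, Eif3f and Eef2 lower, and Eef1a1 lies within 14.53 to 14.58 on every array.

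Of the 4 genes for start codon selection factors 3 rose in wild-type and 4 in PKD2-null cells. Eif1a, a gene for eIF1A, read 8.29, 8.33 and 8.52 and then 10.46, 10.36 and 10.38 in wild-type, and 8.56, 8.71 and 8.52 and then 10.30, 10.32 and 10.35 in PKD2-null arrays. No values overlapped between stimulated and unstimulated arrays, and the rise was 2.02 (SE 0.0859, 4.05-fold, limma adjusted p = 5.9e-09) and 1.73 (3.31-fold, limma adjusted p = 3.9e-08). Its probe set can bind more than 1 transcript, and its other probe set rose by 2.36 and 1.81.

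Eif1ax, the X-linked gene for eIF1A, read 10.14, 10.13 and 10.13 and then 11.28, 11.38 and 11.33 in wild-type, and 10.23, 10.29 and 10.24 and then 11.16, 11.15 and 11.26 in PKD2-null arrays. It rose by 1.20 (SE 0.0708, 2.29-fold, limma adjusted p = 7.1e-08) and by 0.94 (1.92-fold, limma adjusted p = 9.8e-07), again without overlap. Eif1ad, for a protein with an eIF1A domain, rose by 0.62 and 0.71 (limma adjusted p = 0.00031 and 0.00014). Eif1b, a paralogue of eIF1, was called in PKD2-null cells with a rise of 0.40 (limma adjusted p = 0.008), and in wild-type cells its 0.26 missed the threshold (adjusted p = 0.066; 0.036 with the mouse as a replicate block). The PKD2-null call of Eif1b was lost without the mice with Y-linked signal (limma adjusted p = 0.085).

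In eIF2, which carries the initiator tRNA, 2 of 3 measured subunit genes rose in each genotype. Eif2s2, the beta subunit of eIF2, read 11.82, 11.73 and 11.76 and then 12.81, 12.75 and 12.91 in wild-type, and 11.75, 11.88 and 11.78 and then 12.70, 12.79 and 12.70 in PKD2-null arrays. It rose by 1.05 (SE 0.0773, 2.07-fold, limma adjusted p = 4.6e-07) and by 0.93 (limma adjusted p = 2.2e-06), with no overlap.

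Eif2s3x and Eif2s3y code for the gamma subunit of eIF2 on the X and on the Y chromosome, and the signals of both differed between mice of a group. Eif2s3y read 2.99, 9.21 and 3.11 and then 3.05, 9.40 and 3.09 in wild-type arrays, and 3.18, 3.09 and 9.42 and then 3.08, 3.09 and 9.64 in PKD2-null arrays. Wild-type mouse 2 and PKD2-null mouse 3 were thus high on both of their arrays and the other 4 mice near the bottom of the scale. The Y-linked Kdm5d followed the same mice (6.81 to 7.10 against 2.88 to 3.13), and the X-linked Xist was low there (5.33 to 5.77 against 11.20 to 12.21). The labels give no sex. The changes of Eif2s3y with peptide, 0.08 and 0.04 (SE 2.42), were not called.

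Eif2s3x read 11.25, 10.92 and 11.37 and then 11.75, 11.40 and 11.85 in wild-type, and 11.31, 11.35 and 10.95 and then 11.76, 11.78 and 11.53 in PKD2-null arrays. The mice with Eif2s3y signal had the lowest Eif2s3x of their group in each of the 4 groups, and each mouse's stimulated array was above its own unstimulated one. The Eif2s3x probe set is of a kind that can bind more than 1 transcript. The rise was 0.48 (SE 0.154) in both genotypes (limma adjusted p = 0.032 and 0.036), and with the mouse as a replicate block the adjusted p was 0.00089 and 0.0011. Without the blocking it was lost on leaving out wild-type unstimulated 1 or 2 or stimulated 1 or 3 (adjusted p 0.054 to 0.14) and PKD2-null unstimulated 1 or 3 or stimulated 1 or 2 (0.053 to 0.15). Quantile normalization, also without the blocking, removed the call in both genotypes (limma adjusted p = 0.094 and 0.081). Without the mice with Y-linked signal the rise was 0.49 and 0.44 (limma adjusted p = 0.011 and 0.023).

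**Figure D3:**
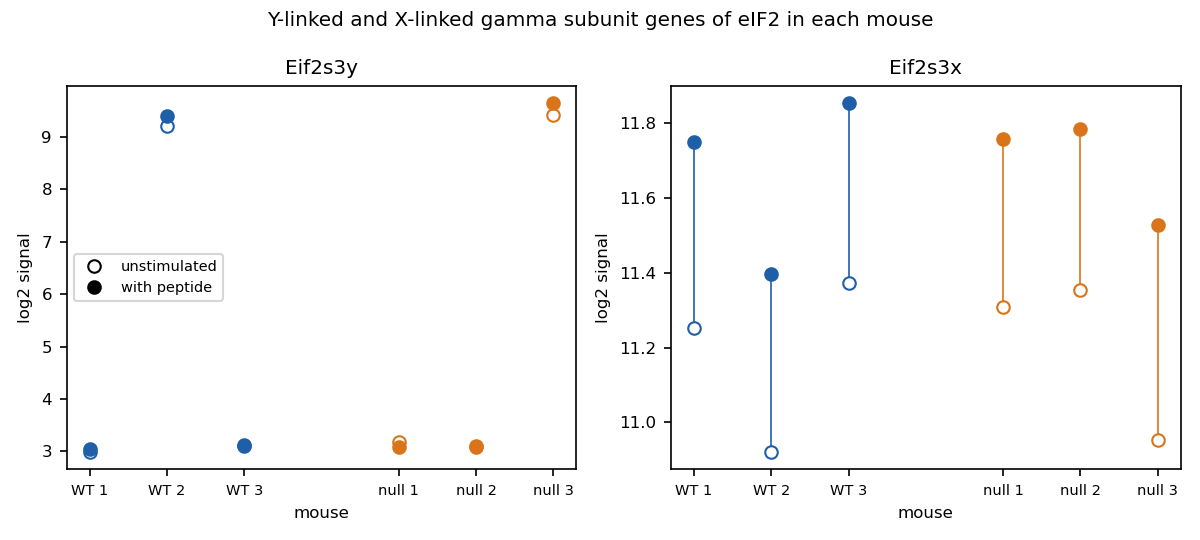
Log2 signal (y axes) of Eif2s3y and Eif2s3x in each of the 6 mice (x axis), with open points for unstimulated and filled points for stimulated cells of the same mouse. Wild-type mouse 2 and PKD2-null mouse 3 are above 9 for Eif2s3y and lowest for Eif2s3x, and Eif2s3x is higher with peptide in every mouse.

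In eIF2B, the exchange factor that reloads eIF2 with GTP, 3 of 5 subunit genes rose in both genotypes. Eif2b3, the gamma subunit, had the largest rise among the 53 members: it read 7.09, 7.51 and 7.72 and then 9.92, 10.00 and 10.04 in wild-type, and 7.55, 7.74 and 7.55 and then 9.61, 9.67 and 9.69 in PKD2-null arrays. Its groups were more than 1 log2 unit apart in each genotype, at 2.54 (SE 0.133, 5.83-fold, limma adjusted p = 2.7e-08) and 2.04 (4.11-fold, limma adjusted p = 3.1e-07). Eif2b1, the alpha subunit, read 8.03, 8.04 and 8.12 and then 9.05, 8.98 and 8.94 in wild-type, and 8.32, 8.22 and 8.29 and then 8.88, 8.88 and 9.01 in PKD2-null arrays. Its rise was 0.93 (SE 0.0758, limma adjusted p = 1.1e-06) and 0.65 (limma adjusted p = 3.4e-05), without overlap. Eif2b5, the catalytic epsilon subunit, rose by 0.78 and 0.53 (limma adjusted p = 1.2e-05 and 0.00041). Eif2b2 and Eif2b4, the beta and delta subunits, changed by -0.19 each in wild-type and by -0.19 and -0.18 in PKD2-null cells and were not called.

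Of the factors that can bind tRNA apart from eIF2, Eif2a rose and Eif2d was not called. Eif2a read 8.55, 8.41 and 8.20 and then 9.25, 9.08 and 9.24 in wild-type, and 8.71, 8.68 and 8.57 and then 9.27, 9.23 and 9.32 in PKD2-null arrays. The groups did not overlap, with rises of 0.80 (SE 0.0968, limma adjusted p = 2.9e-05) and 0.62 (limma adjusted p = 0.00034). Eif2d changed by -0.13 and -0.12.

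The eIF3 complex, the scaffold on the small subunit, did not move as 1 unit. Of its 11 measured subunit genes 7 rose, 2 fell and 2 were not called, in wild-type and in PKD2-null cells alike. Eif3b, part of the core, read 9.65, 9.77 and 9.66 and then 11.25, 11.26 and 11.19 in wild-type, and 9.83, 9.99 and 9.84 and then 11.14, 11.07 and 11.20 in PKD2-null arrays. It rose without overlap by 1.54 (SE 0.0794, 2.91-fold, limma adjusted p = 2.4e-08) and by 1.25 (2.38-fold, limma adjusted p = 2.5e-07). The other rises in wild-type cells were those of Eif3d at 0.89, Eif3a at 0.76, Eif3l at 0.68, Eif3c at 0.65, Eif3m at 0.44 and Eif3i at 0.32, and in PKD2-null cells the same genes rose by 0.34 to 0.75. The call of Eif3i was lost on leaving out wild-type unstimulated 1 or stimulated 1 or 2 (adjusted p up to 0.084) and PKD2-null unstimulated 1 or 3 or stimulated 3 (up to 0.06). In both genotypes it was also lost after quantile normalization and without the mice with Y-linked signal (limma adjusted p = 0.13 and 0.22 without those mice). Without them the PKD2-null call of Eif3m was lost too (limma adjusted p = 0.091).

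Eif3f, a subunit with an MPN domain, fell: it read 13.31, 13.28 and 13.28 and then 12.68, 12.73 and 12.79 in wild-type, and 13.35, 13.31 and 13.23 and then 12.81, 12.89 and 12.67 in PKD2-null arrays. The fall was 0.56 (SE 0.0797, limma adjusted p = 0.00012) and 0.51 (limma adjusted p = 0.00033), with no overlap. Eif3h, the other MPN subunit, fell by 0.25 and 0.33 (limma adjusted p = 0.036 and 0.0079), and the wild-type call was lost on leaving out any 1 wild-type array other than the first unstimulated one (adjusted p up to 0.13). Both calls were lost without the mice with Y-linked signal (limma adjusted p = 0.18 and 0.095). They were also lost with the mean of all probe sets of Eif3h (0.76 and 0.71), of which the others had means of only 3.26 and 3.09. Eif3e changed by -0.05 and -0.04 and Eif3k by 0.01 and -0.24, and neither was called.

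Of the 3 genes that act around the joining of the subunits 2 rose in each genotype. Eif5b, for the GTPase of that step, read 8.44, 8.32 and 8.38 and then 9.74, 9.50 and 9.65 in wild-type, and 8.51, 8.58 and 8.51 and then 9.62, 9.44 and 9.54 in PKD2-null arrays. Its rise was 1.25 (SE 0.0848, 2.38-fold, limma adjusted p = 2.3e-07) and 1.00 (limma adjusted p = 2.4e-06), and no values overlapped. Eif6, which keeps large subunits from joining too early, rose by 0.94 and 0.66 (limma adjusted p = 3.1e-06 and 8.5e-05). Eif5, the GTPase activator of eIF2, changed by 0.21 and 0.25 on the probe set used and was not called (limma adjusted p = 0.12 and 0.072; 0.047 in PKD2-null cells with the mouse as a replicate block), while 3 of its 4 other probe sets were called in wild-type cells.

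Eif5a, whose protein carries the modified residue hypusine, read 12.58, 12.58 and 12.57 and then 13.83, 13.91 and 13.85 in wild-type, and 12.46, 12.75 and 12.47 and then 13.58, 13.75 and 13.65 in PKD2-null arrays. It rose by 1.28 (SE 0.0907, 2.44-fold, limma adjusted p = 3.2e-07) in wild-type and 2.14-fold (limma adjusted p = 2e-06) in PKD2-null cells, without overlap. Its other probe set rose by 2.00 in wild-type cells. The paralogue Eif5a2 rose by 0.38 in wild-type cells (limma adjusted p = 0.029), was not called in PKD2-null cells (0.24, adjusted p = 0.19), and lost the first call on leaving out wild-type unstimulated 1 or 3 or stimulated 2 or 3 (adjusted p up to 0.12).

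Of the 10 Eef genes 3 rose and 2 fell in wild-type and 4 rose and 2 fell in PKD2-null cells, and of the 43 Eif genes 25 rose and 5 fell and 23 rose and 5 fell. On the probe sets used, none of the 4 eEF1 genes was called in either genotype, with changes of -0.12 to 0.19 in wild-type cells, and 35.5% of all genes were called in the wild-type comparison. Eef1a1, the main gene for eEF1A, read 14.58, 14.55 and 14.57 and then 14.54, 14.54 and 14.54 in wild-type, and 14.53, 14.55 and 14.57 and then 14.53, 14.54 and 14.54 in PKD2-null arrays. The arrays' brightest values were 14.87 to 15.07, so this probe set lies close to the top of the scale. Eef1a2, Eef1b2 and Eef1d changed by -0.12, -0.01 and 0.19 in wild-type cells. For Eef1d, part of the exchange factor of eEF1A, the result depended on the probe set: 2 of its 3 other probe sets were called higher in both genotypes, by 0.34 and 0.63 in wild-type (limma adjusted p = 0.0073 and 1e-04) and by 0.30 and 0.73 in PKD2-null cells (0.018 and 4.3e-05). Eef1d was also called in wild-type cells without dim probe sets, with an intensity trend and with the mean of all its probe sets, and in PKD2-null cells with that mean.

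Eef2, the translocation factor, read 13.62, 13.67 and 13.66 and then 13.15, 13.17 and 13.29 in wild-type, and 13.67, 13.70 and 13.69 and then 13.28, 13.28 and 13.23 in PKD2-null arrays. It fell without overlap by 0.45 (SE 0.0708, limma adjusted p = 0.00029) and by 0.42 (limma adjusted p = 0.0006). Eef2k, the kinase that phosphorylates and inhibits eEF2, read 6.63, 6.62 and 6.49 and then 5.77, 6.18 and 5.95 in wild-type, and 6.54, 6.41 and 6.66 and then 6.00, 5.98 and 5.76 in PKD2-null arrays. Here too all stimulated values were lower, and the fall was 0.61 (SE 0.115, limma adjusted p = 0.0011) and 0.63 (limma adjusted p = 0.0011). The other 2 probe sets of Eef2k were not called in wild-type cells, with changes of -0.02 and -0.36 (limma adjusted p = 0.94 and 0.13), and in PKD2-null cells they gave -0.41 (0.016) and -0.20 (0.48).

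Of the 4 genes for enzymes that methylate the elongation factors 3 rose in wild-type and 4 in PKD2-null cells. Eef1aknmt, for a methyltransferase of eEF1A, read 5.32, 5.22 and 5.27 and then 7.46, 7.32 and 7.36 in wild-type, and 5.53, 5.64 and 5.52 and then 7.03, 7.06 and 6.99 in PKD2-null arrays. Every group was apart from every other: PKD2-null cells were higher than wild type without peptide and lower with it. The rise was 2.11 (SE 0.0758, 4.32-fold, limma adjusted p = 2.2e-09) and 1.46 (2.76-fold, limma adjusted p = 5.3e-08). Eef1akmt2 rose by 0.49 and 0.48 (limma adjusted p = 0.00074 and 0.0011) and Eef1akmt1 by 0.40 and 0.31 (0.0034 and 0.019). Eef2kmt, for the methyltransferase of eEF2, rose by 0.47 in PKD2-null cells (limma adjusted p = 0.015), and its 0.33 in wild-type cells was not called (adjusted p = 0.07). The PKD2-null calls of Eef1akmt1 and Eef2kmt were lost on leaving out PKD2-null stimulated 1 (adjusted p up to 0.091 and 0.07), that of Eef1akmt1 also without unstimulated 3 or stimulated 3 and that of Eef2kmt also without unstimulated 1.

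In PKD2-null cells peptide gave nearly the same list of calls. There 27 members rose and 7 fell, against 31.5% of all genes called, 12.5% higher and 19% lower, and 59.5% among genes with a mean of at least 6 (24.1% higher and 35.4% lower). A rise of at least 1 was called for 7 members and for 4.09% of all genes, and a fall of at least 1 for 1 member (Eif4e3) and 4.01% of all genes. Among the 8478 genes with a mean of at least 6, such a rise was called for 692 and such a fall for 666. The median change of the members was 0.27, against -0.02 over all genes. Stimulated and unstimulated values did not overlap for 43 members (81.1%), against 41.5% of all genes, a share again not computed for the brighter genes alone. Without the mice with Y-linked signal 21 members rose and 4 fell. Of the members 25 were called higher and 7 lower in both genotypes, 3 were called higher in wild-type cells alone (Eif4e2, Eif4h and Eif5a2), 2 in PKD2-null cells alone (Eif1b and Eef2kmt), 0 were called in opposite directions and 16 in neither. Of all 18193 genes 2086 were called higher and 3104 lower in both, 668 higher in wild-type cells alone, 181 higher in PKD2-null cells alone and 11202 in neither. For none of the 5 members called in 1 genotype alone was the difference of the effects called. For Eif4e2 and Eif4h the PKD2-null result depended on the probe set. Another probe set of Eif4e2 was called higher there (0.46, limma adjusted p = 0.0094), as was another of Eif4h (0.29, 0.017), and their remaining ones were not. With the mean of all probe sets both genes were called in PKD2-null cells, and Eif4h also without dim probe sets and with an intensity trend.

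Before peptide no member was called between the genotypes. With limma 0 of 53 members were called, against 0.044% of all genes. An unadjusted p under 0.05 was found for 7 members and for 1928 of all 18193 genes. The differences, PKD2-null minus wild type, ran from -0.11 to 0.32. For 12 members (22.6%) the values of the genotypes did not overlap, against 16.4% of all genes. The smallest unadjusted p was that of Eef1aknmt (0.30 higher in PKD2-null cells, SE 0.0758, limma adjusted p = 0.24).

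With peptide 1 member was called, against 1.64% of all genes (0.544% lower). This was Eef1aknmt, whose signal was lower in PKD2-null cells by 0.35 (change -0.35, SE 0.0758, 1.28-fold, limma adjusted p = 0.047; 0.044 with the mouse as a replicate block). The call held on leaving out the second unstimulated PKD2-null array (adjusted p = 0.046) and was lost on leaving out any 1 of the other 11 arrays (0.061 to 0.16). The other probe sets of the gene gave differences of -0.18 (limma adjusted p = 0.61) and 0.00 (0.99). A second probe set of Eif1a, not the one that stood for the gene, was also lower in PKD2-null cells (-0.38, limma adjusted p = 0.038). An unadjusted p under 0.05 was found for 9 of the 53 members and for 3202 of all 18193 genes. The differences of the members ran from -0.35 to 0.26, and for 13 members (24.5%) the values of the genotypes did not overlap, against 23.8% of all genes.

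The test of whether peptide acted differently in the genotypes called 0 members with limma and 0.0055% of all genes. An unadjusted p under 0.05 was found for 9 members and for 1402 of all 18193 genes. The smallest p values were those of Eef1aknmt, with a PKD2-null response smaller by 0.65 (difference -0.65, SE 0.107, limma adjusted p = 0.22), Eif2b3 (-0.50, SE 0.188), Eif2b1 (-0.28), Eif3b (-0.29) and Eif1ax (-0.26). The last 4 had a limma adjusted p of 0.64. For Eef1aknmt the rise was 2.09 to 2.14 in the 3 wild-type mice and 1.42 to 1.50 in the 3 PKD2-null mice, and for Eif2b3 it was 2.32 to 2.83 and 1.93 to 2.13. The changes in the mice of the 2 genotypes did not overlap for any of these 5 genes, which were chosen by the smallest p for this difference, so the lack of overlap adds no support.

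The size of the rises was compared between the genotypes. Of the 19 whose changes in the 2 genotypes averaged at least 0.5, 18 had a smaller change in PKD2-null cells (94.7%), with a median ratio of the PKD2-null to the wild-type log2 change of 0.8. Over the 1788 genes that met the same rule 83.4% had a smaller change in PKD2-null cells and the median ratio was 0.822, so the members lay close to the array as a whole. The mean rise of the 19 was 1.27, 1.17 and 1.21 in the wild-type mice and 0.966, 0.905 and 1.07 in the PKD2-null mice. Each wild-type mouse was above each PKD2-null mouse. The same held for the mean rise of the 1788 genes, at 1.35, 1.32 and 1.32 in wild-type and 1.12, 0.999 and 1.15 in PKD2-null mice. The separation was thus not particular to the members. Members of a mouse are not replicates, so only the 3 and 3 mice stand behind it. Among the 19, the exception with a larger change in PKD2-null cells was Eif1ad, with 0.62 in wild-type and 0.71 in PKD2-null cells. Of the 3 members that fell by as much on average, 2 had a smaller change in PKD2-null cells.

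**Figure D4:**
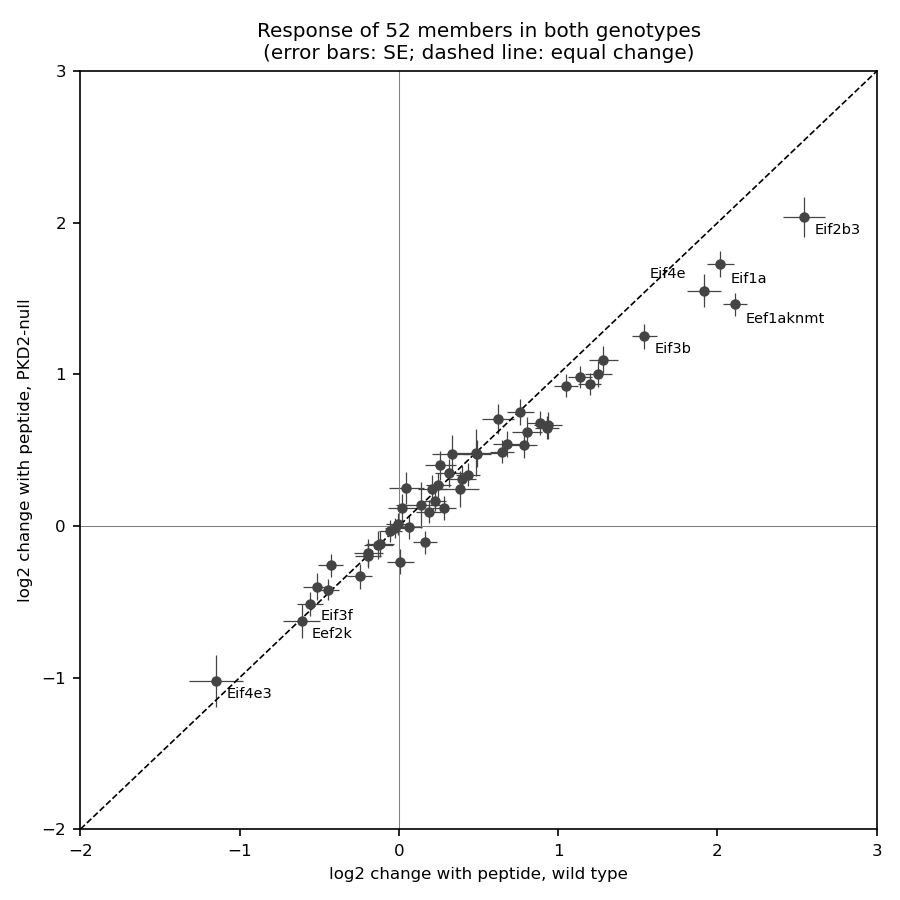
Log2 change with peptide in PKD2-null cells (y axis) against that in wild-type cells (x axis) for 52 members, without Eif2s3y, with SE bars of the limma fit; the dashed line marks equal change. The members with the largest rises, Eif2b3, Eef1aknmt, Eif1a, Eif4e and Eif3b, lie below the line, and those near 0 and below lie close to it.

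Other genes of the translation pathway were taken from lists of 7 kinds of partner, and up to 3 per list are named by the size of their wild-type change. Over all genes 15.1% were called higher and 20.4% lower in wild-type and 12.5% and 19% in PKD2-null cells. Among genes with a mean of at least 6 these shares were 27.4% and 38.5%, and 24.1% and 35.4%. The lists are small, and none was tested as a set. All 9 accessory initiation factor genes rose in wild-type and 8 in PKD2-null cells, led by Abce1, for the ribosome recycling ATPase, at 1.63 and 1.37, Bzw2 at 1.50 and 1.41 and Bzw1 at 1.17 and 1.05. Of 9 genes of poly(A)-binding proteins and partners 4 rose and 2 fell in each genotype. Pdcd4, an inhibitor of eIF4A, had the largest change there, -2.41 (SE 0.17, limma adjusted p = 3.2e-07) and -1.97, and Larp1 and Larp4, for RNA-binding proteins, rose by 1.71 and 1.65 in wild-type cells.

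Of 9 genes for hypusine and diphthamide synthesis, the modifications of eIF5A and eEF2, 7 rose in each genotype, among them Dph2 at 1.31, Dnajc24 at 1.28 and Dph6 at 1.14 in wild-type cells. Of 5 termination and rescue genes 3 rose in each genotype, namely Etf1 and Gspt1, for the release factors, at 1.51 and 1.30, and Pelo at 0.75. Of 8 mitochondrial translation factor genes 4 rose and 1 fell in each genotype, with Gfm1 at 1.37, Mrrf at 1.01 and Tufm at 0.78 in wild-type cells.

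The regulators moved less uniformly. Of 6 genes for eIF2 kinases and phosphatase subunits 2 rose and 1 fell in wild-type and 1 rose and 1 fell in PKD2-null cells. Eif2ak3, for the endoplasmic reticulum kinase PERK, fell by 2.15 (SE 0.102, limma adjusted p = 1.2e-08) and by 1.33 (limma adjusted p = 1.1e-06), and with peptide it was 1.06 higher in PKD2-null cells (limma adjusted p = 0.0011). Ppp1r15a, a phosphatase subunit that reverses eIF2 phosphorylation, rose by 0.71 in wild-type cells (limma adjusted p = 0.003), with 0.06 in PKD2-null cells (adjusted p = 0.86), and Ppp1r15b rose by 0.40 and 0.39. Of 10 genes upstream of the cap-binding complex 1 rose and 2 fell in wild-type and 1 rose and 3 fell in PKD2-null cells. Mknk2, a kinase of eIF4E, fell by 1.63 and 1.23, Rheb, the activator of mTOR complex 1, rose by 1.03 and 0.87, and Tsc1, part of the complex that holds Rheb back, fell by 0.76 and 0.54.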

How the data were processed

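The deposited log2 values, 1 table of 45101 probe sets by 12 Affymetrix arrays, were made by the authors with Affymetrix Expression Console 1.1, per the submitters' processing notes, and were not normalized again; how they were normalized is not stated there. Leaving out 64 controls, 45037 were tested, 34945 of them with 1 gene symbol. Names ending in s_at, x_at or a_at mark those able to bind several transcripts. The fit of group means used limma 3.58.1 (R 4.3.3) (8 residual and 4.18 prior degrees of freedom), two-sided, with Benjamini-Hochberg adjustment over 45037 probe sets; called means an adjusted p under 0.05. Replicates are separate mice by the animal numbers in the labels, and their number limits the precision; 0 pairs of arrays were identical.

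The members, the lists and the rule for naming were chosen with earlier results of these data known. All 12 values are given for the called member with the largest rise and fall of each role group in wild-type cells, the members called in a genotype comparison, the 5 smallest p for the difference of the effects, and Eif2s3x, Eif2s3y, Eif4e, Eif4ebp1, Eif4ebp2, Eif5a, Eef1a1 and Eef2. Promoters were read from RefSeq tables of GRCm38.p6.

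The animal numbers pair the unstimulated and stimulated array of a mouse. Deviations from the group means correlated by 0.116 to 0.577 within a mouse and by at most 0.129 between mice; the mouse as a replicate block was an alternative (consensus correlation 0.202). Others were quantile normalization, median centring, leaving out probe sets with a mean under 6, an intensity trend, the mean of all probe sets of a gene, leaving out each array, and, chosen after seeing the data, leaving out the mice with Y-linked signal. On simulated data with 200 of 45037 probe sets changed (a stricter adjustment than that of the real stimulation comparisons), a change of 1 was recovered in 87.5% of cases for stimulation in wild type, 84.5% in PKD2-null, 89% and 91% for the genotype comparisons without and with peptide and 62.5% for the difference of the effects; a change of 0.5 was recovered in 24%, 28%, 20.5%, 26% and 0%. Proteins were not analysed here.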

Additional observations from a re-analysis of the deposited data

Results flagged for a closer look

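The differences of Eif4a3 between stimulated and unstimulated arrays had opposite signs in the genotypes: 0.30, 0.11 and 0.08 in the 3 wild-type mice and -0.06, -0.21 and -0.06 in the 3 PKD2-null mice. Neither change was called, at 0.16 in wild-type (limma adjusted p = 0.15) and -0.11 in PKD2-null cells (0.4). The difference of the effects was -0.27 (SE 0.11, limma adjusted p = 0.66) and did not pass the adjustment over all probe sets. The mean signal of 4.20 was below the array medians.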

How the results depend on the processing

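Under 20 settings, 28 of the 35 calls in wild-type and 24 of the 34 in PKD2-null cells held in each setting that measured the gene, and 0 member calls changed direction. The call of Eef1aknmt between stimulated genotypes was the least stable: the count of members lower went from 1 to 0 with arrays centred on their medians, with an intensity trend and without the mice with Y-linked signal, and ranged from 0 to 1 on leaving out 1 array. With the mean of all probe sets Eef1aknmt was lost and 1 other member gained. Without the mice with Y-linked signal 4 members in place of 7 fell in PKD2-null cells. The median change in wild-type cells was 0.20 after quantile normalization, 0.30 without dim probe sets, 0.27 with the mean of all probe sets and 0.27 to 0.31 on leaving out 1 array; the median in PKD2-null cells was then 0.25 to 0.34 and that of the difference of the effects -0.11 to -0.040. On leaving out 1 array, 24 to 29 members rose and 6 to 7 fell in wild-type, and 23 to 27 rose and 6 to 8 fell in PKD2-null cells. With the mouse as a replicate block 28 members rose and 7 fell in both genotypes; beyond the genes named, it changed no other call. The cause of these shifts was not tested. On the simulated data, with 3 arrays per group, a difference of 0.5 between the effects was recovered in 0% of cases. The pairing of arrays by mouse was not simulated, so this sets no limit for the fit with the mouse as a block.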
